A study of Mus musculus with 7 samples.

Results

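The 10 genes described here encode ligands, receptors and intracellular mediators of transforming growth factor beta (TGF-beta): the ligands Tgfb1, Tgfb2 and Tgfb3, the receptors Tgfbr1 and Tgfbr2, the signal transducers Smad2, Smad3 and Smad4, and the inhibitors Smad7 and Skil. They were chosen by gene symbol, with earlier results of these data known, from the 55487 genes of a count table of pancreatic islet RNA. All 10 were in the table, and all 10 were among the 16203 genes that passed the filter on low counts. Islets were isolated from Control mice (n = 4 libraries) and from Traf6 KO mice (n = 3 libraries), in which the series' design text places the loss of Traf6 in beta cells. Both groups ate a 60% high-fat diet for 15 weeks, and their islets recovered in culture medium for 24 hours before RNA was taken. Age, sex, strain and the Cre driver were not given in the sources used here, and cells of the islet other than beta cells keep Traf6 in such a design.

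TGF-beta ligands are secreted in a latent form and, once released, bind TGFBR2, which recruits and phosphorylates TGFBR1. The activated receptor phosphorylates SMAD2 and SMAD3, which join SMAD4 and enter the nucleus to regulate transcription. SMAD7 blocks the receptor, SKIL (also called SnoN) represses SMAD-bound genes, and both are themselves induced by the pathway. TRAF6 binds the TGF-beta receptor complex and activates the kinase TAK1, a branch that runs beside the SMADs. In islets, TGF-beta signals are known for effects on beta-cell maturation, proliferation and insulin expression, and in the exocrine pancreas for the activation of stellate cells.

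Library totals ran from 22104256 to 29917292 counts, and levels are given as CPM, counts per 1000000 counts of the library, scaled by the trimmed mean of M-values (TMM). All 15 listed beta-cell markers were tested, and none was at 0 in all libraries. Their summed level was 158000 to 192000 CPM per Control library against 91900 to 118000 CPM per Traf6 KO library. Of the 15, 14 had a log2 fold change (Traf6 KO over Control) below 0 and 1 above 0, where 50.7% of all genes were above 0. In 6 of the 15, all Traf6 KO libraries lay below all Control libraries, as in 8.68% of all genes. A list of 19 acinar markers took 16.4%, 45.9% and 35.8% of counts in Control 1, Traf6 KO 1 and Traf6 KO 2, and at most 2.74% in the others. Traf6 stood at 12.7 CPM in the library labelled Control 4, below the 14.5 to 15.4 CPM of the Traf6 KO libraries, while Control 1 to 3 stood at 17.9, 25.5 and 22.1 CPM (log2 fold change -0.40 ± 0.22 SE, edgeR adjusted p = 0.416). The label of that library is therefore not borne out by this gene, which is counted whole and not by its deleted part. Traf6 KO 3 had 421 CPM of Xist and 0 counts of each of 4 Y-linked genes, against at most 0.389 CPM of Xist in the other libraries, so it alone came from a female. Traf6 KO 3 and the library labelled Control 4 carry an S in the sample tags of their titles, where the others carry Q or R.

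Per length of exon, the co-mediator Smad4 stood highest of the 10 genes in Control islets, at 9.89 ± 0.298 CPM per kilobase (SD, n = 4). Tgfbr1 followed at 4.38 ± 0.38 CPM per kilobase, and neither range overlapped that of its neighbours in the order. Smad7 at 2.74, Smad2 at 2.48, Tgfb1 at 2.22, Skil at 2.09 and Tgfbr2 at 1.32 CPM per kilobase came next. The ranges of adjacent genes in this run overlapped, so these ranges, which do not compare genes within a library, leave their order unresolved. The lowest means were Tgfb3 at 0.723, Smad3 at 0.60 and Tgfb2 at 0.449 CPM per kilobase, again with overlapping ranges. The range of Tgfb3 (0.378 to 1.29) also overlapped that of Tgfbr2 (0.818 to 2.43). Islets thus held more transcript per length of the type I receptor than of the type II receptor, and SMAD2 was represented by more transcript than SMAD3. In Traf6 KO the per-length level of Smad3 was 1.94 ± 0.894 CPM per kilobase (SD, n = 3), beside 1.39 for Tgfb3 and 1.37 for Tgfbr2, whose ranges overlapped that of Smad3, while Smad4 (11.8) and Tgfbr1 (5.41) stayed first and second. Per-length values rest on the union of annotated exons and not on the isoforms in use.

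**Figure D1:**
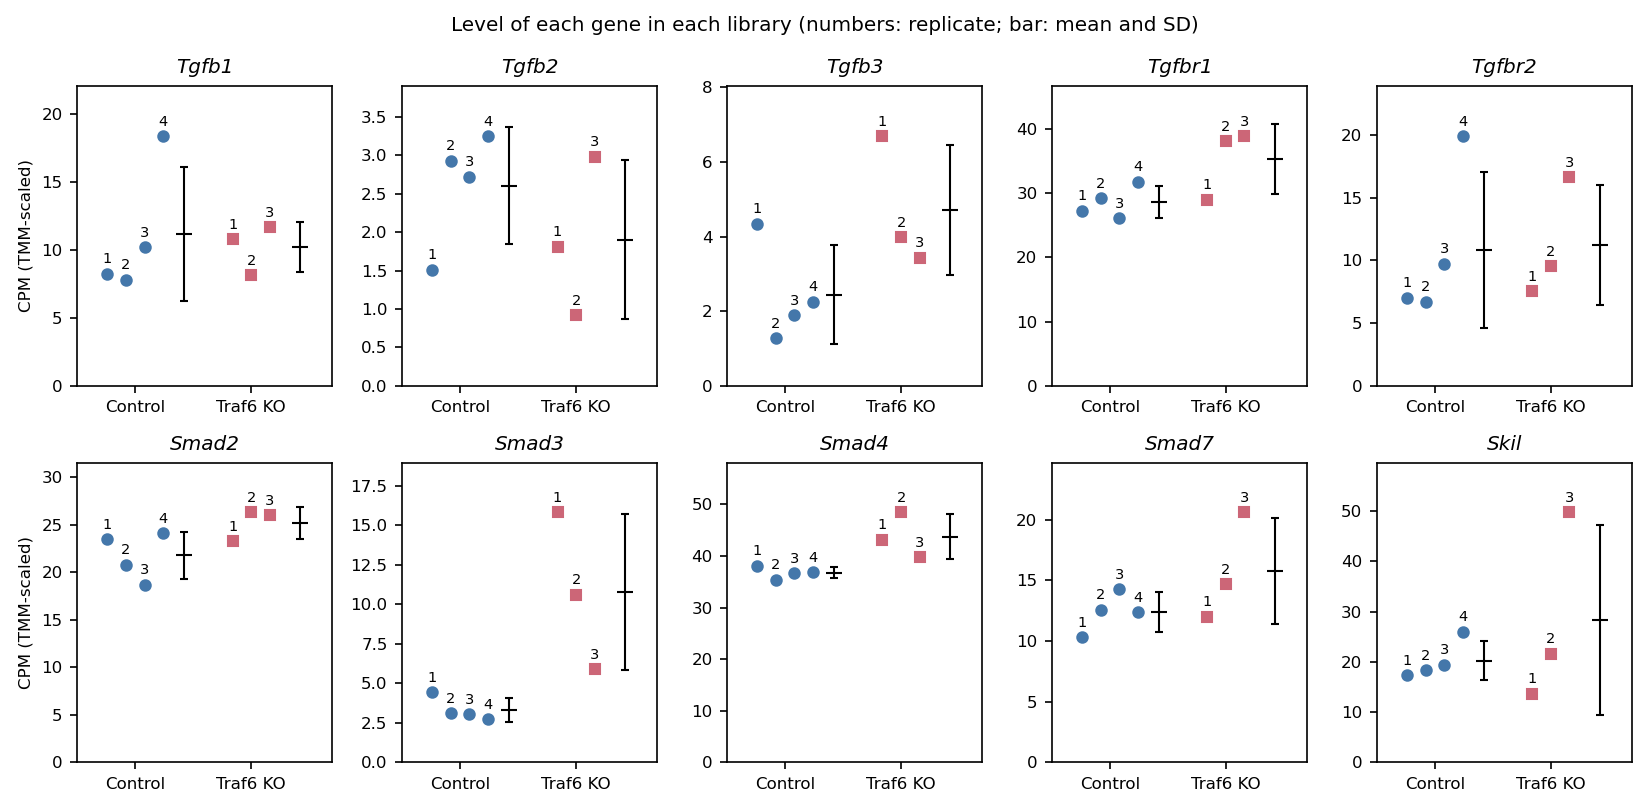
Level in TMM-scaled CPM (vertical axes, from 0) of each of the 10 genes in Control (circles, n = 4) and Traf6 KO (squares, n = 3) libraries, with replicate numbers beside the points and the mean and SD as a bar. Smad3 and Smad4 show no overlap between genotypes, Tgfb1 and Tgfbr2 are highest in the library labelled Control 4, and Skil is highest in Traf6 KO 3.

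No gene of the set passed the test between genotypes. With edgeR's quasi-likelihood test, 0 of 10 had an adjusted p under 0.05, as did 0% of all genes tested. At an unadjusted p under 0.05 there were 3 of 10, Smad3, Smad4 and Tgfbr1, all higher in Traf6 KO, where 8.81% of all genes were higher and 7.17% lower by this measure. The log2 fold change was above 0 in 8 of 10 (50.7% of all genes), with a median of 0.28 against 0.005 over all genes. In 2 of 10, Smad3 and Smad4, all Traf6 KO libraries lay above all Control libraries, and in none did all lie below, where 5.58% and 8.68% of all genes did. Other tools called more: the DESeq2 Wald test called Smad3 (4.59% of all genes called), limma-voom with sample quality weights called Smad3 and Smad4 (6.46%), and limma-voom without weights called 0. Without Traf6 KO 3, which leaves the 2 acinar-rich Traf6 KO libraries, edgeR called Smad3 (4.24% of all genes), and the median of the set was 0.15.

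Smad3, the transducer that binds DNA directly, had the largest fold change of the set. Its level was 4.42, 3.12 and 3.05 CPM in Control 1 to 3, 2.72 CPM in the library labelled Control 4, and 15.8, 10.6 and 5.90 CPM in Traf6 KO 1 to 3. The lowest Traf6 KO library lay above the highest Control library, and the Traf6 KO libraries differed from each other by more than the Control libraries did. Its log2 fold change of 1.68 ± 0.33 (SE) had an edgeR adjusted p of 0.176 and rank 88 of 16203 by p. Its means were 3.33 ± 0.747 CPM for Control (SD, n = 4) against 10.8 ± 4.93 CPM for Traf6 KO (SD, n = 3). The raw counts were small, 77 to 197 per library. Within a library the ratio of Smad3 to Smad2 counts, which no scaling alters, was 0.188, 0.151 and 0.163 for Control 1 to 3 and 0.113 for the library labelled Control 4. For Traf6 KO 1 to 3 the ratio was 0.677, 0.405 and 0.227. The ratio was thus also higher in each Traf6 KO library than in any Control library.

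The Smad3 level followed the acinar share of the libraries in part. Both Traf6 KO libraries with the highest acinar share had the highest Smad3 levels, and among Control libraries the acinar-rich Control 1 was highest. Traf6 KO 3, with an acinar share of 1.36%, nonetheless lay above Control 1, and the library labelled Control 4, with 2.74%, lay below Control 2 and 3, with 0.404% and 0.391%. All 19 acinar markers were tested, none was at 0 in all libraries, all 19 had a log2 fold change above 0, and they summed to 3100 to 171000 CPM per Control library against 10100 to 918000 CPM per Traf6 KO library. Once the acinar list mean entered the fit as a covariate, Smad3 was at 1.08 ± 0.27 (SE, edgeR adjusted p = 0.182). Without the 3 acinar-rich libraries, which leaves Traf6 KO 3 as the single Traf6 KO library, assumed to vary like the others, it was 0.98 ± 0.28. Traf6 KO 3 is also the single female library, so genotype and sex cannot be told apart there. With the stellate and fibroblast list mean as the covariate Smad3 was at 1.47 ± 0.37 (edgeR adjusted p = 0.423). Among Q- and R-tagged libraries alone it was 1.90 ± 0.26 (edgeR adjusted p = 0.0519). Smad3 stayed higher in Traf6 KO in each of the 21 alternatives, with values from 0.98 to 1.98 and adjusted p from 0.000569 to 0.475. Since its groups do not overlap, leaving out a library could not turn its direction. In bulk islet RNA, more cells of a type and more transcript per cell cannot be told apart.

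**Figure D2:**
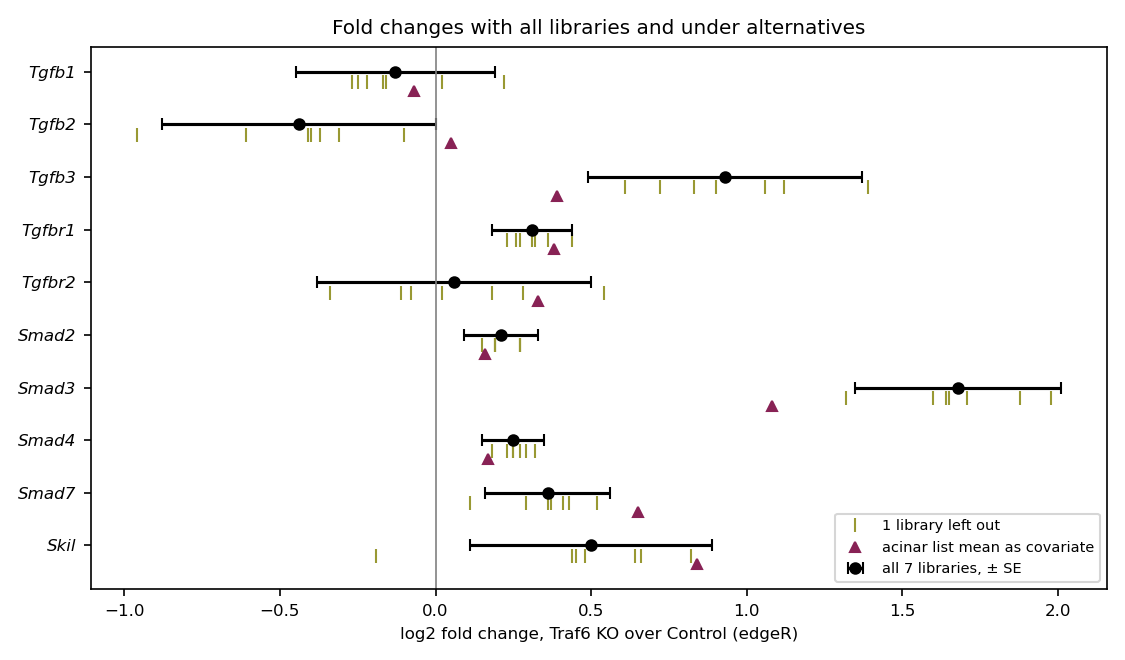
Log2 fold change of each of the 10 genes (horizontal axis, Traf6 KO over Control), with all 7 libraries and its SE (black), with each library left out in turn (ticks) and adjusted for the acinar list mean (triangles). Smad3 keeps a value of at least 1.08 in the settings drawn, while the ticks of Tgfb1, Tgfbr2 and Skil lie on both sides of 0.

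Smad2 and Smad4 differed far less than Smad3. Smad4 stood at 38.1, 35.4 and 36.6 CPM in Control 1 to 3, 36.8 CPM in the library labelled Control 4, and 43.1, 48.4 and 39.7 CPM in Traf6 KO 1 to 3. Its Control libraries lay within a narrow band and all Traf6 KO libraries lay above it, which gave 0.25 ± 0.10 on the log2 scale (SE, edgeR adjusted p = 0.274). With the acinar covariate the value was 0.17 ± 0.12, and without the acinar-rich libraries 0.12 ± 0.10. Smad2, the other receptor-activated SMAD of this pathway, stood at 23.5, 20.8 and 18.7 CPM in Control 1 to 3, 24.1 CPM in the library labelled Control 4, and 23.3, 26.3 and 26.0 CPM in Traf6 KO 1 to 3. Traf6 KO 1 lay within the Control range, and the difference on the log2 scale was 0.21 ± 0.12 (SE, edgeR adjusted p = 0.413). Among the 10 genes, Smad4 and Smad2 had the smallest spread over libraries, with 1.37-fold and 1.40-fold between the highest and the lowest library, and Smad3 the widest, with 5.79-fold.

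The inhibitors Smad7 and Skil were highest in Traf6 KO 3. Smad7 stood at 10.3, 12.6 and 14.3 CPM in Control 1 to 3, 12.4 CPM in the library labelled Control 4, and 12.0, 14.7 and 20.6 CPM in Traf6 KO 1 to 3. Skil stood at 17.3, 18.3 and 19.4 CPM in Control 1 to 3, 26.0 CPM in the library labelled Control 4, and 13.7, 21.6 and 49.7 CPM in Traf6 KO 1 to 3. For Skil, Traf6 KO 1 was thus the lowest and Traf6 KO 3 the highest of the 7 libraries. Fold changes on the log2 scale were 0.36 ± 0.20 for Smad7 and 0.50 ± 0.39 for Skil (SE, edgeR adjusted p = 0.41 and 0.56). With Traf6 KO 3 left out they were 0.11 and -0.19, so the direction of Skil rests on that library. The ratio of Skil to Smad7 counts was 2.41 in Traf6 KO 3 and 2.1 in the library labelled Control 4, and 1.14 to 1.69 in the others. The same library also had the highest Tnfaip3, a feedback inhibitor of NF-kB (78.5 CPM against 2.94 to 11.7 CPM in the others). With the tag series as a term, Skil was at 0.25 ± 0.24 and Smad7 at 0.30 ± 0.18 (SE). Adjusted for the acinar list mean they were at 0.84 ± 0.30 and 0.65 ± 0.14 (SE, edgeR adjusted p = 0.266 and 0.178). Without the acinar-rich libraries Skil was at 1.22 and Smad7 at 0.64. Traf6 KO 3 is then the only Traf6 KO library, so these values rest on it and say nothing of the other Traf6 KO libraries. Traf6 KO 3 is the single female library, so sex and this library cannot be told apart. It also had the highest summed level of 13 lymphocyte markers, 457 CPM against 12.9 to 82.7 CPM in the others. The mean log2(CPM + 1) of those markers was 2.66 there and 0.59 to 2.33 in the others. Whether these traits bear on Skil and Smad7 was not tested.

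The receptor genes behaved unlike each other. Tgfbr1, which encodes the kinase that phosphorylates SMAD2 and SMAD3, stood at 27.3, 29.2 and 26.1 CPM in Control 1 to 3, 31.8 CPM in the library labelled Control 4, and 29.0, 38.1 and 38.9 CPM in Traf6 KO 1 to 3. Traf6 KO 1 lay among the Control libraries and Traf6 KO 2 and 3 above them, which gave 0.31 ± 0.13 on the log2 scale (SE, edgeR adjusted p = 0.309). Tgfbr2, the ligand-binding receptor, stood at 7.01, 6.70 and 9.72 CPM in Control 1 to 3, 19.9 CPM in the library labelled Control 4, and 7.52, 9.54 and 16.6 CPM in Traf6 KO 1 to 3. Both S-tagged libraries, 1 of each genotype, were the highest for Tgfbr2, and the genotypes overlapped throughout. It was at 0.06 ± 0.44 on the log2 scale (SE, edgeR adjusted p = 0.957), and 0.01 ± 0.19 with the tag series as a term. It was 0.54 without the library labelled Control 4 and -0.34 without Traf6 KO 3. The ratio of Tgfbr1 to Tgfbr2 counts was lowest in both S-tagged libraries, at 1.60 for the library labelled Control 4 and 2.34 for Traf6 KO 3, against 2.68 to 4.36 for the Q- and R-tagged libraries.

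The 3 ligand genes each followed another pattern over the libraries. Tgfb1, the ligand made by many immune and stromal cells, stood at 8.27, 7.81 and 10.2 CPM in Control 1 to 3, 18.4 CPM in the library labelled Control 4, and 10.8, 8.14 and 11.7 CPM in Traf6 KO 1 to 3. The library labelled Control 4 stood alone above the rest. Tgfb1 was at -0.13 ± 0.32 on the log2 scale (SE, edgeR adjusted p = 0.871), and 0.22 ± 0.20 without that library. The library labelled Control 4 also had the highest summed level of the 14 macrophage and myeloid markers, 560 CPM against 183 to 247 CPM for Control 1 to 3 and 153 to 271 CPM for the Traf6 KO libraries, and none of the 14 was at 0 in all libraries. It likewise had the highest summed level of 12 endothelial markers, 534 CPM against 381 to 509 CPM. Once the myeloid list mean entered the fit, Tgfb1 was at 0.09 ± 0.15 (SE, edgeR adjusted p = 0.807).

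Tgfb3 stood at 4.35, 1.28 and 1.90 CPM in Control 1 to 3, 2.26 CPM in the library labelled Control 4, and 6.70, 3.99 and 3.44 CPM in Traf6 KO 1 to 3. Control 1, the acinar-rich Control library, lay within the Traf6 KO range, and the other Control libraries lay below it. Tgfb3 was at 0.93 ± 0.44 on the log2 scale (SE, edgeR adjusted p = 0.345), 1.39 without Control 1, 0.61 when Traf6 KO 1 was left out, and 0.39 ± 0.33 adjusted for the acinar list. The stellate and fibroblast list, 15 of whose 16 genes were tested and 13 of those above 0, had its 2 highest summed levels in Control 1, at 233 CPM, and Traf6 KO 1, at 389 CPM. Its mean log2(CPM + 1) was highest in Traf6 KO 1 (3.56) and Traf6 KO 3 (3.14), ahead of Control 1 (2.81). With that mean as a covariate the value of Tgfb3 was 0.55 ± 0.45.

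Tgfb2 ran the opposite way. It stood at 1.51, 2.93 and 2.72 CPM in Control 1 to 3, 3.25 CPM in the library labelled Control 4, and 1.81, 0.917 and 2.98 CPM in Traf6 KO 1 to 3. The 3 acinar-rich libraries were the 3 lowest, whatever their genotype, and Traf6 KO 3 lay within the Control range. Counts were as low as 17 in a library. On the log2 scale Tgfb2 was at -0.44 ± 0.44 (SE, edgeR adjusted p = 0.654), and 0.05 ± 0.41 with the acinar covariate. It was -0.96 when Traf6 KO 3 was left out and -0.10 when Traf6 KO 2 was. A ratio of Tgfb3 to Tgfb1 counts between 0.49 and 0.622 was found in the acinar-rich libraries, and one between 0.123 and 0.294 in the others.

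**Figure D3:**
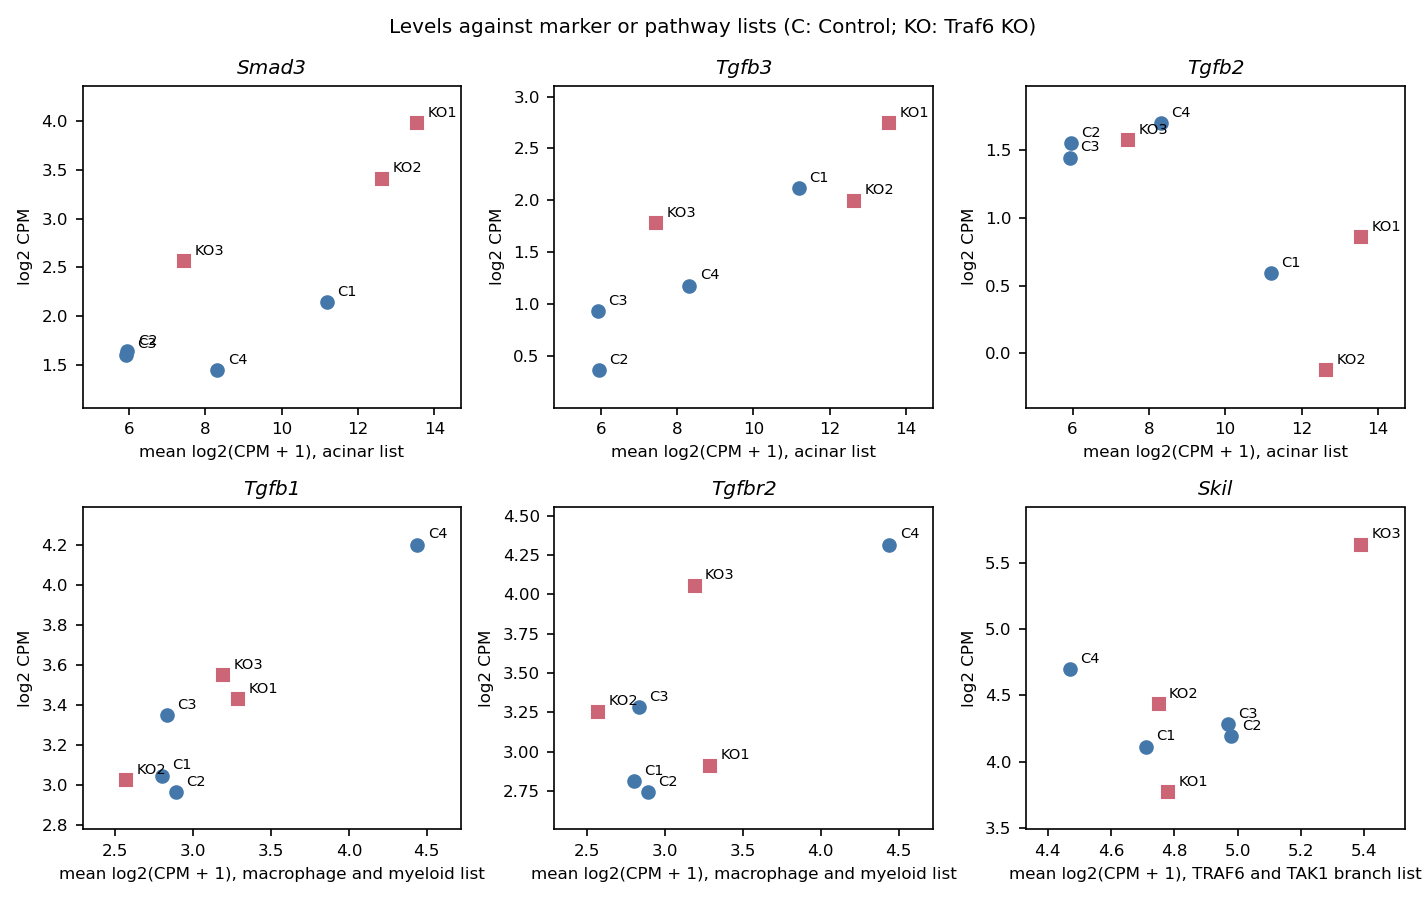
Log2 CPM of 6 genes (vertical axes) against the mean log2(CPM + 1) of the acinar, myeloid or TRAF6 and TAK1 lists (horizontal axes) in each of the 7 libraries (C, Control; KO, Traf6 KO). Smad3 and Tgfb3 are high and Tgfb2 is low where the acinar list is high, Tgfb1 and Tgfbr2 are highest in the library labelled Control 4, where the myeloid list is highest, and Skil is highest in Traf6 KO 3.

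As a description over 7 libraries that share their scaling, Pearson's r with the acinar list mean was 0.90 for Tgfb3, 0.84 for Smad3 and 0.80 for Smad4, and -0.81 for Tgfb2. With the ductal list mean it was 0.85 for Smad3 and 0.84 for Tgfb3, much as with the acinar list. With the myeloid list mean it was 0.94 for Tgfb1 and 0.71 for Tgfbr2, and with the endothelial list mean 0.86 and 0.85. With the beta-cell list mean it was -0.91 for Smad3. Among the members themselves, r was 0.87 for Smad3 and Smad4, 0.85 for Smad3 and Tgfb3, 0.85 for Tgfb1 and Tgfbr2, 0.84 for Smad7 and Skil, and -0.82 for Smad4 and Tgfb2. The genes whose log2 CPM was most like that of a member, among tested genes of at least 10 CPM on average, were Btbd3 (r = 0.998), Tmc6 (0.996) and Orai2 (0.993) for Smad3. They were Ahctf1 (0.986) and Ndst1 (0.984) for Smad4, Mapk8, Sirt1 and Zfp608 for Smad7 (0.969 to 0.981), and Rlf, Ints6 and Casp2 for Skil (0.985 to 0.987). For the ligands they were Irf8, Tbpl1 and Ifngr1 with Tgfb1 (0.956 to 0.988), H2-D1, Ppox and Vrk1 with Tgfb2 (0.977 to 0.993), and Ube2h, Ippk and Cd9 with Tgfb3 (0.964 to 0.976). Smad2 was most like Eri1, Ppp4r2 and Gmcl1 (0.966 to 0.98), Tgfbr1 most like Foxn2, Setd2 and Atad2b (0.985 to 0.992), and Tgfbr2 most like Arid4a, Mtf2 and Zcchc9 (0.951 to 0.972). These are the top of 8697 or 8698 candidate genes per member, ranked over only 7 libraries.

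Promoter windows of Smad3, Tgfb1 and Tgfb2 are shown because Smad3 varied most over the libraries, Tgfb1 stood alone in 1 library, and Tgfb2 was lowest in the acinar-rich libraries. Each runs from 250 bases before to 50 bases after the start of the gene, 5′ to 3′ on the gene's strand, from RefSeq on GRCm38.p6. The windows are chr9:63757945-63758244 on the minus strand for Smad3, chr7:25686752-25687051 on the plus strand for Tgfb1 and chr1:186705940-186706239 on the minus strand for Tgfb2. Capitals mark the SMAD-binding letters CAGAC and the TATA-box letters TATAAA, each searched on both strands.
Smad3: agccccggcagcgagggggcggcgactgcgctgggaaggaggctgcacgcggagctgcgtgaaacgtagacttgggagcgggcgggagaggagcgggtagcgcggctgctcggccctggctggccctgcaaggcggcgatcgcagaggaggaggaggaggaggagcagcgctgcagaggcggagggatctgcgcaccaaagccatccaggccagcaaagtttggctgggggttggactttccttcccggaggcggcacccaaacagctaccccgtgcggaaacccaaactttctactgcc
Tgfb1: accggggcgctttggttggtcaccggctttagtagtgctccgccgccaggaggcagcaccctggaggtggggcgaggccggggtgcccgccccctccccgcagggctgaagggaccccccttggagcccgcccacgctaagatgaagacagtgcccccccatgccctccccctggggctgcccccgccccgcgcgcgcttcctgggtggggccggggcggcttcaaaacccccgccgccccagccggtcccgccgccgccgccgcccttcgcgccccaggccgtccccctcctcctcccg
Tgfb2: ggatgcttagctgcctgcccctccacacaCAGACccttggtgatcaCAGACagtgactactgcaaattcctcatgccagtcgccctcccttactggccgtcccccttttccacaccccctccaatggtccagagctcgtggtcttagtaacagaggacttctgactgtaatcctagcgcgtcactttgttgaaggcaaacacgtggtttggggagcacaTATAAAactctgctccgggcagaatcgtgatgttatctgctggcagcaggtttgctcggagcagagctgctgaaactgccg
The Smad3 window was 67.7% G or C with 25 CG dinucleotides, the Tgfb1 window 77% with 30, and the Tgfb2 window 54.3% with 10, against medians of 52.7% and 7 over 32851 windows. CAGAC was present in 2 copies in Tgfb2, starting at positions -221 and -204 from the start site, and was not found in the windows of Smad3 or Tgfb1, while 49.6% of all windows hold it. TATAAA was present once, in Tgfb2 at position -31, and is held by 13.6% of all windows. Another set of letters, GGCGC, the GC-rich form of a SMAD-binding site, was present in 2 copies in Tgfb1 and in neither other window, with 36.9% of all windows holding it. Windows were matched for 5 of the 10 genes, the others being Tgfbr1 and Tgfbr2.

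On GRCm38 the 10 genes are protein-coding and lie on 7 chromosomes. Smad3 (ENSMUSG00000032402) spans 63646767 to 63757994 on the minus strand of chromosome 9, which also holds Tgfbr2 (116084293 to 116175360). Smad2, Smad4 and Smad7 all lie on chromosome 18, Tgfb1 on chromosome 7, Tgfb2 on 1, Tgfb3 on 12, Tgfbr1 on 4 and Skil on 3. Exons of Tgfb2 and Tgfb3 overlap those of genes on the opposite strand by 2.14% and at most 7.60% of their length. Those genes had at most 6 counts each over all 7 libraries, against 462 for Tgfb2 and 553 for Tgfb3.

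The wider pathway was read from lists of other genes, and no gene of any list passed over all genes tested with edgeR (0% of all genes). Among nuclear partners of the SMADs, 16 of 17 tested genes had a log2 fold change above 0 (median 0.32), against 50.7% of all genes. In 4 all Traf6 KO libraries lay above all Control libraries (5.58% of all genes), and 6 were higher at an unadjusted p under 0.05 (8.81% of all genes). Tgif1, a homeodomain corepressor of SMADs, stood at 1.54, 1.62 and 2.26 CPM in Control 1 to 3, 1.66 CPM in the library labelled Control 4, and 5.52, 3.45 and 6.84 CPM in Traf6 KO 1 to 3. It was at 1.57 ± 0.29 on the log2 scale (SE, edgeR adjusted p = 0.176). Without the acinar-rich libraries, where Traf6 KO 3 is the only Traf6 KO library left, Tgif1 was at 1.88. Trim24 was at 0.49 ± 0.09, Trim33, a ubiquitin ligase that binds SMAD proteins, at 0.51 ± 0.15, and Ski, the corepressor related to Skil, at 0.27 ± 0.08 (SE, edgeR adjusted p = 0.176, 0.214 and 0.22). These 4 were picked as the smallest p of their list. The DESeq2 Wald test, which called 4.59% of all genes, called all 4, with 0.51 to 1.60 for Tgif1, Trim24 and Trim33 and 0.30 for Ski, and edgeR called Trim24 when Traf6 KO 3 was left out (0.52 ± 0.10, adjusted p = 0.0378, 4.24% of all genes called). Unlike Smad3, Tgif1 was highest in Traf6 KO 3, where the acinar share was 1.36%.

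Genes that act on the ligand or the receptor showed no common direction. Of 16 tested co-receptors and receptor modulators 9 were above 0 (median 0.01), against 50.7% of all genes. The ubiquitin ligase genes Smurf1 and Smurf2, which mark the receptor for degradation, were at 0.48 ± 0.16 and 0.31 ± 0.11, and Eng, an endothelial co-receptor, and Fkbp1a, which holds TGFBR1 inactive, at -0.41 ± 0.14 and -0.24 ± 0.10 (SE, edgeR adjusted p = 0.231, 0.254, 0.249 and 0.313). Of 16 genes of ligand latency and activation 11 were above 0 (median 0.24), among them the matrix proteoglycan genes Bgn at 1.17 ± 0.36 and Dcn at 1.72 ± 0.66, the protease gene Furin at 0.42 ± 0.20, and Emilin1 at -0.48 ± 0.24 (SE, edgeR adjusted p = 0.223, 0.276, 0.355 and 0.366). Of these 8 genes, the DESeq2 Wald test called Bgn (4.59% of all genes called). Limma-voom with sample quality weights called Smurf1, Smurf2 and Eng (6.46% of all genes called). Adjusted for the stellate and fibroblast list mean, Bgn was at 0.36 and Dcn at 0.52. When Traf6 KO 3 was left out, Furin passed at 0.65 ± 0.12 (SE, edgeR adjusted p = 0.033), where 4.24% of all genes were called. Without the acinar-rich libraries Furin was at -0.13. Dcn, which the stellate and fibroblast list holds too, was highest in Traf6 KO 3 and 1 (22.6 and 15.1 CPM) and 3.61 CPM in Traf6 KO 2.

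Among target genes of TGF-beta, 23 of 30 tested were above 0 (median 0.30), against 50.7% of all genes. At an unadjusted p under 0.05, 3 were higher, near the 8.81% of all genes. Fn1, the fibronectin gene, was at 2.09 ± 0.74 (SE, edgeR adjusted p = 0.253). Fn1 stood at 16.5 CPM in Traf6 KO 3, 6.43 CPM in Traf6 KO 1, 1.73 CPM in Traf6 KO 2 and 0.557 to 2.87 CPM in the Control libraries, so the genotypes overlapped. When Traf6 KO 3 was left out, Fn1 was at 1.04, and adjusted for the stellate and fibroblast list mean it was at 0.74. Pdgfb, a growth factor for stellate cells, was at 0.30 ± 0.12 with no overlap between genotypes, and Tpm1 at 0.30 ± 0.12 (SE, edgeR adjusted p = 0.278 and 0.284). Pdgfb was the 1 gene of the 30 with all Traf6 KO libraries above all Control libraries (5.58% of all genes), and none had all below (8.68%). The list summed to 803 to 1150 CPM per Control library, and to 990, 780 and 2100 CPM for Traf6 KO 1 to 3. Its mean log2(CPM + 1), which abundant genes do not dominate, was 3.79, 3.24 and 4.21 there and 3.34 to 3.56 for Control, so it was above the Control libraries for Traf6 KO 1 and 3. Smad7 and Skil, themselves targets, were likewise highest in Traf6 KO 3. The target list shares collagen genes with the stellate and fibroblast list. The mean of the stellate and fibroblast list was also highest in Traf6 KO 1 (3.56) and Traf6 KO 3 (3.14). It was 2.21 in Traf6 KO 2 and 2.09 to 2.81 for Control. Whether stromal content underlies the level of the target list was not tested.

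In the TRAF6 and TAK1 branch, 11 of 13 genes were above 0 (median 0.11), against 50.7% of all genes. Mapk9, which encodes a JNK kinase, averaged 38.9 ± 4.28 CPM over Control (SD, n = 4) against 49.7 ± 2.22 CPM over Traf6 KO (SD, n = 3). It was the 1 gene of the 13 with no overlap, where all Traf6 KO libraries lay above in 5.58% of all genes and below in 8.68%. Mapk9 was at 0.35 ± 0.11 on the log2 scale (SE, edgeR adjusted p = 0.221). Tab3, a TAK1-binding protein gene, was at 0.44 ± 0.18, Mapk8 at 0.37 ± 0.17 and Tnfaip3 at 2.18 ± 0.95 (SE, edgeR adjusted p = 0.295, 0.34 and 0.317). Tnfaip3 was at -0.29 without Traf6 KO 3.

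**Figure D4:**
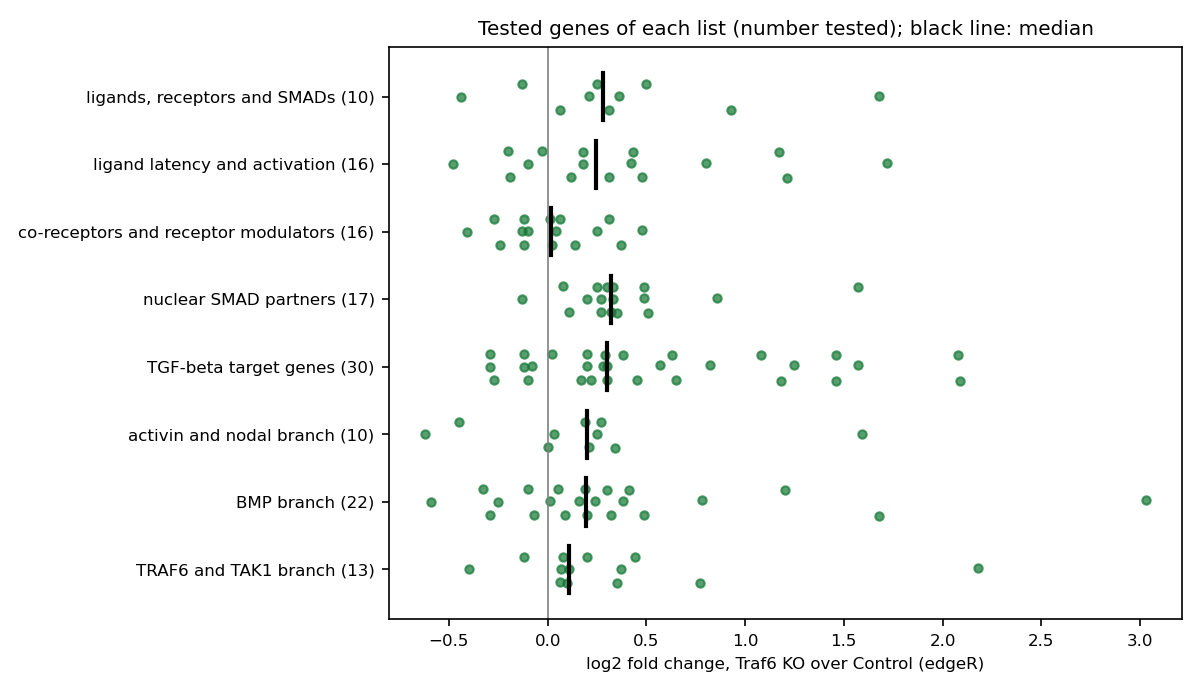
Log2 fold change (horizontal axis, Traf6 KO over Control) of each tested gene of the 10 ligands, receptors and SMADs and of 7 other pathway lists, with the median of each as a black line and the number of tested genes in parentheses. Medians lie between 0.01 and 0.32, and single genes of the target, BMP and TRAF6 and TAK1 lists lie above 2. Vertical offsets within a list only separate the points.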

How the data were processed

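The authors deposited 1 table of whole-number counts per gene, not normalized, with a column for each of 7 islet libraries. Per the submitters' processing notes, STAR 2.6.1b, RSEM 1.3.1, FastQC and the GRCm38 build were used. Their roles are not given, and the whole numbers may be estimates rounded from RSEM. Annotation, strand setting and filters: not given in the sources used here. Per the labels' protocols, RNA was taken with a kit named for tissue DNA. Groups came from the library names in the labels. Nothing says which libraries share a litter, and p-values measure the spread between these samples, which differed beyond counting noise in each of 21 pairs.

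The whole table was fitted with edgeR 4.0.16 in R 4.3.3 (quasi-likelihood F test, TMM, genotype only, filterByExpr with a minimum count of 10 and total of 15), with Benjamini-Hochberg adjustment over 16203 genes and 0.05 as the threshold. CPM is the count over the product of the tested-gene total and the TMM factor, which ran from 0.4998 to 1.353. SE was derived from F and the fold change. The fit was run on counts simulated from a mean profile shared by all libraries. That run held no differences in acinar share, so it does not show how the fit behaves under those seen here. Alternatives used DESeq2 1.42.0 on the same filtered genes, limma 3.58.1, other scalings and filters, covariates, and 1 library left out in turn. Coordinates and exon lengths came from GENCODE M21 (55227 of 55487 identifiers matched).

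The genes, lists and tests were chosen with earlier results of these data known. Named besides the 10 genes and Traf6 are, in each pathway list, up to 4 tested genes with the smallest p, and for each of the 10 genes the 3 most correlated genes (predicted-gene symbols left out), except that 2 such genes are not reported here. Xist was read as a check of the libraries.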

Additional observations from a re-analysis of the deposited data

How the results depend on the processing

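No gene of the set passed in all 7 libraries with edgeR. The number that passed was 1 with the DESeq2 Wald test and 2 with limma-voom with sample quality weights, and 0 to 1 with 1 library left out, where 1 was Smad3 without Traf6 KO 3. Of the 10 genes, Smad2, Smad3, Smad4, Smad7, Tgfb3 and Tgfbr1 kept their direction in each of 21 alternatives. For Smad3 and Smad4, whose groups do not overlap, the alternatives that only leave out libraries could not turn the direction. The median of the set ran from 0.15 (without Traf6 KO 3) to 0.36 with 1 library left out, and was 0.44 without the 3 acinar-rich libraries. The number with no overlap between genotypes ran from 2 to 5 with 1 library left out. It was 4 without Control 1 (19.2% of all genes), 5 without Traf6 KO 1 (27.3%) and 3 without Traf6 KO 2 (19.4%). Without Traf6 KO 3 it was 2 of 10, below the 34.2% of all genes, and among Q- and R-tagged libraries 2 of 10, below 41.2%. Without Control 2, 3 or 4 it was 2 (16.7% to 19.8%). It was 7 without the acinar-rich libraries, where 64.8% of all genes had none because 1 Traf6 KO library was left.

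Directions turned as follows. Tgfb1 was at 0.21 with the replicate block, 0.10 in the Q- and R-tagged libraries, 0.09 with the myeloid covariate, 0.22 without the library labelled Control 4 and 0.02 without Traf6 KO 2. Tgfbr2 was at -0.08 without Control 1, -0.11 without Control 2 and -0.34 without Traf6 KO 3. Tgfb2 was at 0.05 with the acinar covariate. Among the Q- and R-tagged libraries Skil was at -0.05 and Tnfaip3 at -0.43, and without Traf6 KO 3 they were at -0.19 and -0.29. Without the acinar-rich libraries Bmp3 was at -0.14 and Furin at -0.13. With 1 library left out in turn, values ran from -0.27 to 0.22 for Tgfb1, -0.34 to 0.54 for Tgfbr2, -0.19 to 0.82 for Skil and -0.29 to 2.67 for Tnfaip3. The cause was not tested. Leaving out the acinar-rich libraries and the myeloid covariate were chosen after the data were seen.

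Same-numbered libraries of both genotypes did not deviate together throughout (correlations of 0.56, -0.133 and 0.436 over genes), so the numbers were not taken as pairs. With the replicate block 6 genes of the whole table passed, none of them in the set, and Smad3 was at 1.52. Counts were lowest for Tgfb2, at 17 to 105 per library.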

Other observations

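Other branches of the TGF-beta superfamily were also measured, and none of their genes passed the edgeR test over all genes (0% of all genes). Of 22 tested genes of the bone morphogenetic protein (BMP) branch 16 were above 0 on the log2 scale (median 0.20), against 50.7% of all genes, and 5 were higher at an unadjusted p under 0.05 (8.81% of all genes). Bmp7, which encodes a secreted ligand, stood at 7.71, 0.809 and 0.703 CPM in Control 1 to 3, 1.87 CPM in the library labelled Control 4, and 37.7, 28.5 and 2.01 CPM in Traf6 KO 1 to 3. Its high values were thus those of the acinar-rich libraries, Control 1 among them, and it was at 3.03 ± 1.08 on the log2 scale (SE, edgeR adjusted p = 0.252), or 0.84 without those libraries. Bmp3 was high in Traf6 KO 1 and 2 (31.3 and 26.3 CPM) and 5.06 CPM in Traf6 KO 3, against 4.34 to 9.22 CPM in the Control libraries. Bmp3 was at 1.68 ± 0.56 (SE, edgeR adjusted p = 0.234), and at -0.14 without the acinar-rich libraries. It passed without Traf6 KO 3 at 2.15 ± 0.28 (SE, edgeR adjusted p = 0.019), where 4.24% of all genes were called. Bmpr2, the type II receptor gene of this branch, was at 0.41 ± 0.13 and Id2, a BMP target, at 0.78 ± 0.28 (SE, edgeR adjusted p = 0.233 and 0.251). The DESeq2 Wald test called Bmp3 (4.59% of all genes called). Limma-voom with sample quality weights called Bmp3 and Bmpr2 (6.46% of all genes called).

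In the activin and nodal branch, 10 of 19 listed genes were tested and 5 had no count in any library: the nodal co-receptor genes Cfc1 and Tdgf1, the ligand gene Gdf1, and the inhibin subunit genes Inhbc and Inhbe. Of the 10 tested, 7 were above 0 (median 0.20), against 50.7% of all genes. Acvr1b, an activin receptor gene, was at 0.19 ± 0.10 with all Traf6 KO libraries above all Control libraries, and Gdf11, a ligand gene, at -0.62 ± 0.31 with all below (SE, edgeR adjusted p = 0.382 and 0.368). Each was 1 of the 10 in its direction, where 5.58% of all genes lay above and 8.68% below. Gdf15, a stress-induced ligand gene, was at 1.59 ± 0.58 and Acvr2a, another activin receptor gene, at 0.25 ± 0.14 (SE, edgeR adjusted p = 0.262 and 0.416). Gdf15 was counted in this list, though it does not encode an activin or nodal ligand. Gdf15 stood at 2.59 CPM in Traf6 KO 3, 1.36 CPM in Traf6 KO 1, 0.485 CPM in Traf6 KO 2 and 0.247 to 0.697 CPM in the Control libraries.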
